A study of Homo sapiens with 13 samples.

Results

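The respiratory chain is the set of 4 enzyme complexes and mobile carriers in the mitochondrial inner membrane that passes electrons from nutrients to oxygen. Complex I (NADH dehydrogenase) and complex II (succinate dehydrogenase) take up electrons, complex III (the cytochrome bc1 complex) hands them to cytochrome c, and complex IV (cytochrome c oxidase) reduces oxygen to water. Complexes I, III and IV pump protons, and ATP synthase uses the proton gradient to make ATP. Most subunits are encoded in the nucleus and imported, and liver cells carry many mitochondria. 59 nuclear subunits and carriers were listed by symbol, and a table row was kept where the platform annotation gave that symbol alone. 56 of the 59 had such a row, among 18377 genes in all. They comprise 33 of 35 listed subunits of complex I, all 3 of complex II, all 7 of complex III, cytochrome c (CYCS) and all 12 of complex IV. NDUFC2 and NDUFS5 had only rows shared with other genes, and NDUFA4L2, a paralog of the subunit NDUFA4, is not analysed here. The list holds no mitochondrially encoded subunit.

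RNA from 13 culture flasks was measured on 13 whole-transcript arrays, and every value below is a log2 signal on the authors' scale. HepG2 is a human liver cancer line, described in the labels as hepatoblastoma. HepG2S1 is, per the labels, a line derived from it by stepwise and then continuous exposure to sorafenib, a kinase inhibitor used against liver cancer. HepG2S1 cells were grown in 4 flasks with 6 µM sorafenib at 20% O2. 3 more flasks of that line had the drug withdrawn at 20% O2, and another 3 had 6 µM sorafenib at 2% O2. Untreated HepG2 was grown in 3 flasks at 20% O2. All were harvested after 72 h, in Williams medium E with 10% fetal calf serum, insulin, 50 nM dexamethasone and antibiotics. HepG2S1 is 1 line, so that drug resistance and any other difference between it and HepG2 cannot be told apart. The labels name no vehicle for HepG2 and no batch.

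The arrays labelled HepG2S1 were far lower in the liver markers that define HepG2, and whether this line derives from HepG2, as its label says, was not tested. All 8 hepatocyte markers tested were lower in HepG2S1 with sorafenib at 20% O2 than in HepG2. AFP, the fetal serum protein, averaged 4.79 in HepG2S1 with the drug and 13.45 in HepG2, and ALB, the main plasma protein, 5.20 and 12.79. AFP, ALB and FGB, a fibrinogen chain, were the 3 of 8 markers below 5.76, the median lower quartile of an array, in each HepG2S1 group, and none was below it in HepG2. The other 5 were above it, with APOA1, the protein of high-density lipoprotein, highest at 7.76 in HepG2S1 with the drug, against 11.52 in HepG2. The summed level of the 8 markers (log2) ranged from 9.25 to 9.35 with sorafenib, from 9.24 to 9.33 after withdrawal and from 9.19 to 9.26 at 2% O2, against 15.90 to 15.96 in HepG2. In HepG2S1 with sorafenib at 20% O2 against HepG2, 30.1% of all genes were higher and 27.2% lower. Of 8 fibroblast and stellate markers 2 were higher and 1 lower in HepG2S1 with the drug. The 2 were DCN, a matrix proteoglycan, at 10.59 in HepG2S1 and 5.16 in HepG2, and LUM, another, at 10.21 and 5.20. The summed level of that list was 11.77 to 11.93 with sorafenib, 12.43 to 12.48 after withdrawal and 11.98 to 12.18 at 2% O2, against 12.09 to 12.21 in HepG2. The fall was RELN, a secreted matrix protein, at 6.03 in HepG2S1 and 11.79 in HepG2. Of 8 endothelial and blood markers 1 was higher and 5 were lower, with LYZ, lysozyme, at 4.76 in HepG2S1 and 13.12 in HepG2. Their summed level was 12.16 to 12.28 with sorafenib, 11.67 to 11.86 after withdrawal and 12.31 to 12.42 at 2% O2, against 13.53 to 13.58 in HepG2. All comparisons with HepG2 below carry this difference between the lines, whose part in the result was not tested, and no HepG2S1 group is without it.

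Most respiratory chain subunits were higher in HepG2S1 than in HepG2. With sorafenib at 20% O2, 37 of the 56 members (66.1%) were called higher and 4 lower, and 15 were not called, where a call is an adjusted p under 0.05 in limma. The median log2 fold change of the members was 0.32, and single members ranged from -0.58 to 1.30. 14 members rose by 0.5 or more. 41 of the 56 members lay within ±0.5, against 12351 of all 18377 genes. In RNA from whole flasks, fewer cells of a type and less RNA per cell cannot be told apart. Over all 18377 genes the same comparison called 30.1% higher and 27.2% lower, with a median of 0.01. Dim genes are called less often on an array, and among the 12312 genes brighter on average than the 33rd percentile, 40.8% were higher and 32.3% lower. On single arrays, the median deviation of the members from the HepG2 mean was 0.29 to 0.35 with sorafenib, 0.31 to 0.34 after withdrawal and 0.31 to 0.34 at 2% O2, against -0.03 to 0.03 in HepG2. The 10 HepG2S1 arrays did not overlap with the 3 HepG2 arrays in this summary, while the 3 HepG2S1 groups overlapped with each other. By complex, some HepG2S1 groups did not overlap. The median deviation of complex I was 0.362 to 0.402 after withdrawal. It was lower with sorafenib, at 0.287 to 0.358 at 20% O2 and 0.332 to 0.351 at 2% O2. That of complex III was 0.194 to 0.410 after withdrawal. It was higher with sorafenib, at 0.414 to 0.543 at 20% O2 and 0.483 to 0.568 at 2% O2. The middle fold change of its 7 members against HepG2 was that of UQCRQ with sorafenib at 20% O2 (0.49). After withdrawal the middle 1 was that of UQCRB (0.25). From sorafenib to withdrawal at 20% O2 the 7 members of complex III changed by a median of -0.03, and only UQCRB was called (-0.52). The median change of complex I was 0.01. Complex II, a median of 3 members, was at 0.49 to 0.59 after withdrawal, 0.31 to 0.40 at 2% O2 and 0.35 to 0.50 with sorafenib at 20% O2. None of the 3 was called between withdrawn cells and cells with sorafenib at 20% O2. SDHD was at 0.13 in that comparison, and its second row at -0.08. Complex IV was at 0.24 to 0.29 after withdrawal, 0.16 to 0.28 at 2% O2 and 0.21 to 0.27 with sorafenib at 20% O2. These are descriptions with no test, and how often gene sets of the same size separate in this way was not counted. The median log2 fold change of the other genes of a member's chromosome ran from -0.09 to 0.18.

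**Figure D1:**
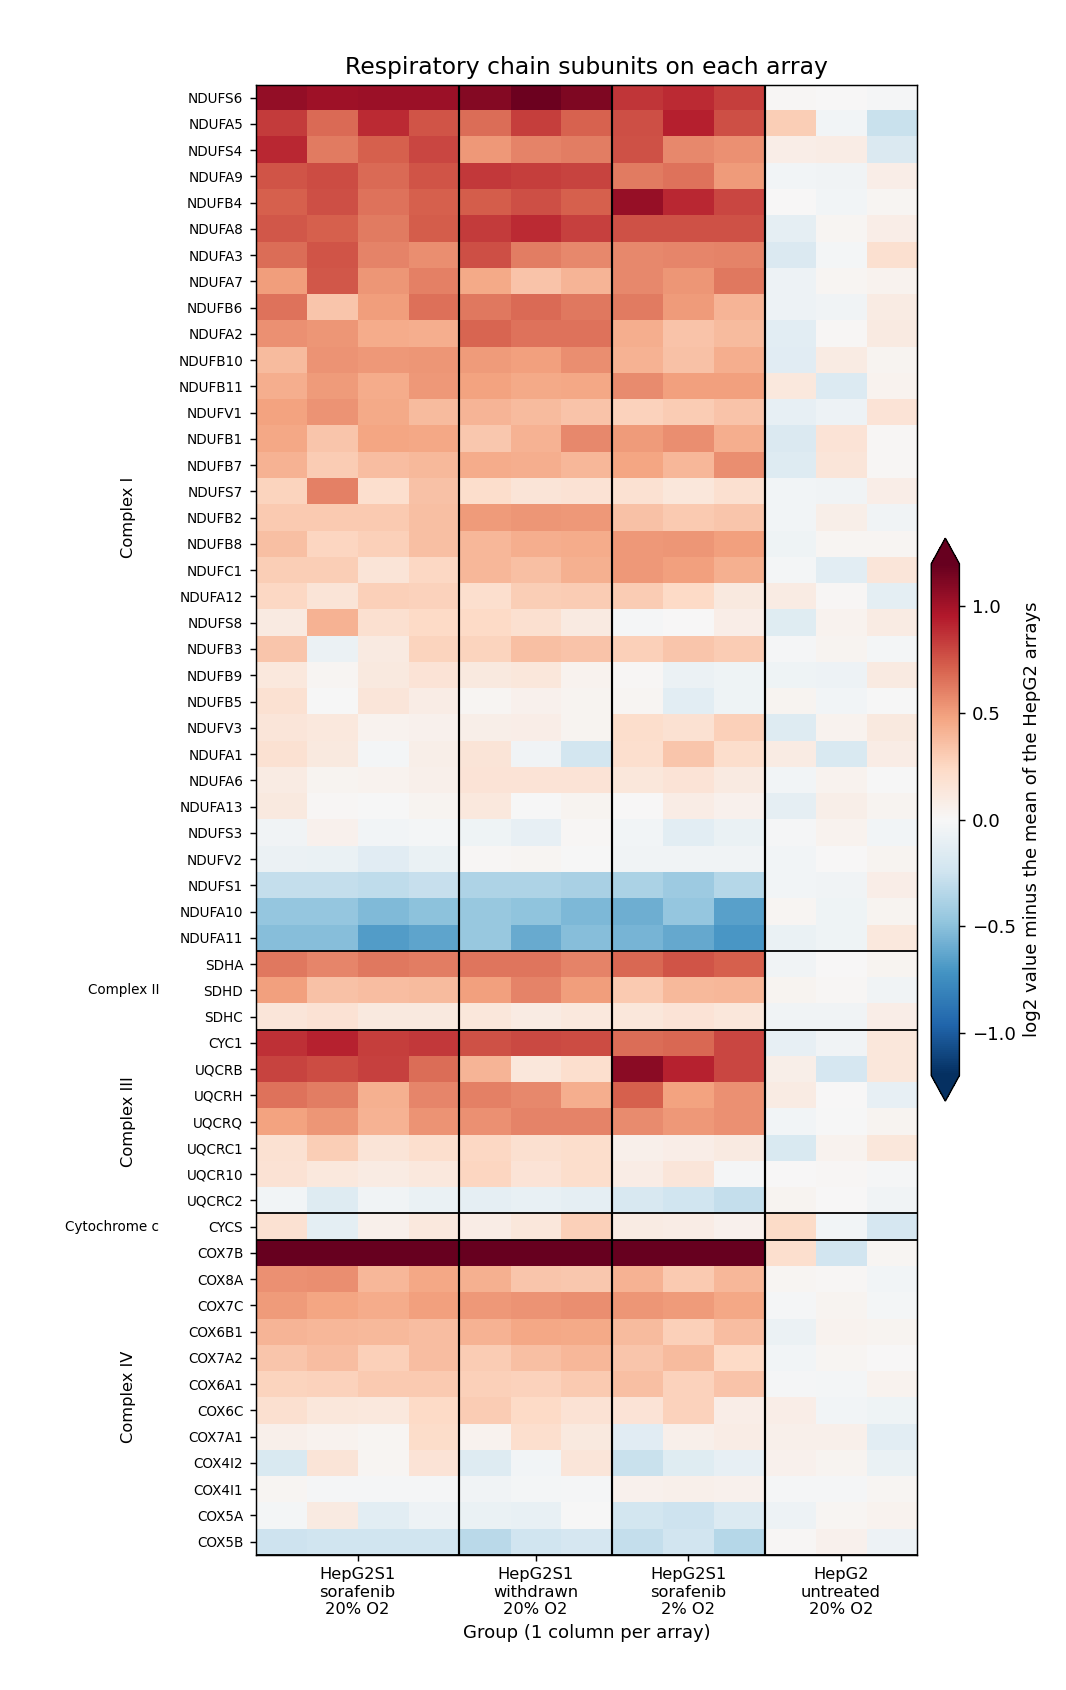
Each row is 1 of the 56 members, ordered by complex and by fold change, and each column 1 array. Colour gives the log2 value minus the mean of the 3 HepG2 arrays, from blue (lower) to red (higher), and the darkest red of COX7B lies beyond the end of the scale. Most rows are red in all 3 HepG2S1 groups, and NDUFA11, NDUFA10, NDUFS1 and COX5B are blue.

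Complex I had 21 members higher, 3 lower and 9 not called among 33, with a median of 0.33. NDUFS6, a zinc-binding accessory subunit of the peripheral arm, showed the largest rise of the complex. It had log2 values of 10.04, 10.01, 10.02 and 10.02 in HepG2S1 with sorafenib, against 9.00, 8.99 and 8.97 in HepG2. The groups were far apart relative to their spread, with a log2 fold change of 1.03 ± 0.04 (SE, adjusted p = 1.09e-11). NDUFA5, an accessory subunit of the peripheral arm, had 9.11, 8.96, 9.17 and 9.03 with sorafenib, against 8.57, 8.24 and 8.01 in HepG2. The HepG2 arrays differed more from each other than the HepG2S1 arrays did, and the groups did not overlap (0.79 ± 0.10, adjusted p = 5.46e-06). NDUFS4, an accessory subunit whose loss in patients causes Leigh syndrome, had 10.66, 10.38, 10.47 and 10.56 with sorafenib, against 9.84, 9.85 and 9.58 in HepG2 (0.76 ± 0.08, adjusted p = 7.09e-07). A second row annotated to NDUFS4 averaged 5.13 with sorafenib and 5.22 in HepG2, near the floor of the arrays, and was not called (adjusted p = 0.247).

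The 3 falls of complex I were in NDUFA11, NDUFA10 and NDUFS1. NDUFA11, a membrane arm accessory subunit, had 8.93, 8.93, 8.77 and 8.80 with sorafenib, against 9.36, 9.39 and 9.57 in HepG2. All 4 HepG2S1 arrays lay below the 3 HepG2 arrays, with a log2 fold change of -0.58 ± 0.07 (adjusted p = 1.52e-06). NDUFA10, an accessory subunit related to nucleoside kinases, had 9.25, 9.25, 9.18 and 9.22 with sorafenib, against 9.74, 9.66 and 9.74 in HepG2 (-0.49 ± 0.05, adjusted p = 9.49e-07). NDUFS1, a core subunit that binds iron-sulfur clusters, had 10.88, 10.88, 10.86 and 10.89 with sorafenib, against 11.13, 11.13 and 11.24 in HepG2 (-0.29 ± 0.05, adjusted p = 6.36e-05). Both groups were tight, and the sign of these 3 falls was the same on every HepG2S1 array.

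Core and accessory subunits of complex I were also counted apart. Core subunits carry the cofactors and the catalytic reaction, and accessory subunits assemble and stabilise the complex. Of the 6 core subunits 3 were higher (NDUFV1, NDUFS7 and NDUFS8), 1 was lower and 2 were not called, with a median of 0.11. Of the 27 accessory subunits 18 were higher, 2 lower and 7 not called, with a median of 0.37. Whether the 2 classes differ was not tested. NDUFV2, a core subunit of the NADH-oxidising module, was at -0.09 ± 0.04 (adjusted p = 0.0907), and a second row annotated to it was called at -0.13 (adjusted p = 0.0191). The identifier of the row used lies among those of another chromosome, and whether it measures NDUFV2 itself was not tested.

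All 3 measured subunits of complex II were called higher on the rows used, with a median of 0.40. The rows used for SDHC and SDHD carry identifiers that lie among those of other chromosomes. Whether they measure these genes themselves was not tested. SDHA, the flavoprotein that oxidises succinate and so also serves the tricarboxylic acid cycle, had 12.02, 11.98, 12.02 and 12.00 with sorafenib, against 11.34, 11.40 and 11.42 in HepG2. The 2 groups were separate, with a log2 fold change of 0.62 ± 0.05 (adjusted p = 7.51e-09). SDHD, a membrane anchor of the complex, had 11.81, 11.66, 11.68 and 11.69 with sorafenib, against 11.34, 11.32 and 11.27 in HepG2 (0.40 ± 0.05, adjusted p = 7.17e-06). A second row of SDHD was called as well, at 0.51 (adjusted p = 0.000149). SDHC, the other anchor, had 12.70, 12.73, 12.67 and 12.68 with sorafenib, against 12.52, 12.52 and 12.63 in HepG2. Its difference of 0.14 ± 0.05 (adjusted p = 0.0181) was small, and a second row of SDHC was at 0.06 (adjusted p = 0.524). The call of SDHC was lost without replicate 1 or replicate 2 of HepG2 (adjusted p = 0.0651 and 0.0668).

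Complex III had 6 of 7 members called higher and none lower, with a median of 0.49. CYC1, cytochrome c1, the haem subunit that passes electrons to cytochrome c, had 11.34, 11.40, 11.30 and 11.32 with sorafenib, against 10.37, 10.43 and 10.61 in HepG2. Its log2 fold change was 0.87 ± 0.06 (adjusted p = 3.38e-09), and the groups did not overlap. UQCRB, a small subunit that binds ubiquinone, had 7.80, 7.77, 7.81 and 7.66 with sorafenib, against 7.05, 6.79 and 7.12 in HepG2 (0.77 ± 0.09, adjusted p = 1.75e-06). UQCRH, the hinge subunit between cytochrome c1 and cytochrome c, had 8.43, 8.38, 8.19 and 8.36 with sorafenib, against 7.87, 7.78 and 7.67 in HepG2 (0.57 ± 0.07, adjusted p = 6.59e-06). UQCRC2, a core protein, was not called (-0.08 ± 0.05, adjusted p = 0.205).

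Cytochrome c itself was not called. CYCS, the carrier between complexes III and IV, which also takes part in apoptosis when released, had 9.81, 9.51, 9.68 and 9.75 with sorafenib, against 9.86, 9.60 and 9.42 in HepG2. The groups overlapped over most of their range, and the 95% interval of the difference was -0.13 to 0.26 (adjusted p = 0.608).

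Complex IV had 7 of 12 members higher, 1 lower and 4 not called, with a median of 0.23. COX7B, a small membrane subunit encoded on the X chromosome and needed for assembly, had the largest rise of all 56 members. It had 9.12, 9.04, 8.98 and 9.19 with sorafenib, against 7.99, 7.56 and 7.81 in HepG2. This is a log2 fold change of 1.30 ± 0.09 (adjusted p = 5.73e-09), or 2.46-fold. COX8A, the widely expressed isoform of subunit 8, rose by 0.50 ± 0.05 (adjusted p = 9.78e-07). COX7C, another small membrane subunit, rose by 0.48 ± 0.05 (adjusted p = 1.42e-07). COX5B, a zinc-binding subunit on the matrix side, had 12.28, 12.29, 12.29 and 12.29 with sorafenib, against 12.54, 12.58 and 12.46 in HepG2. It was the only member of complex IV called lower (-0.24 ± 0.05, adjusted p = 0.000688).

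The list holds isoform pairs of complex IV. COX4I1, the common isoform of subunit 4, through which ATP inhibits the enzyme, had 9.81, 9.78, 9.78 and 9.78 with sorafenib, against 9.78, 9.78 and 9.81 in HepG2. The 95% interval of its difference was -0.09 to 0.09 (adjusted p = 0.969). COX4I2, the isoform known for its response to low oxygen, had 6.69, 7.03, 6.89 and 7.03 with sorafenib, against 6.93, 6.91 and 6.79 in HepG2 (0.04 ± 0.09, adjusted p = 0.754). COX7A2, the liver-type isoform of subunit 7a, rose by 0.34 ± 0.05 (adjusted p = 2.57e-05), with means of 10.35 with sorafenib and 10.01 in HepG2. COX7A1, the heart and muscle isoform, had 6.83, 6.81, 6.79 and 6.99 with sorafenib, against 6.83, 6.83 and 6.65 in HepG2 (0.09 ± 0.07, adjusted p = 0.337). The rows of COX4I2 and COX7A1 lay below the array medians of 7.30 to 7.42 on all 13 arrays, where RMA values compress.

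**Figure D2:**
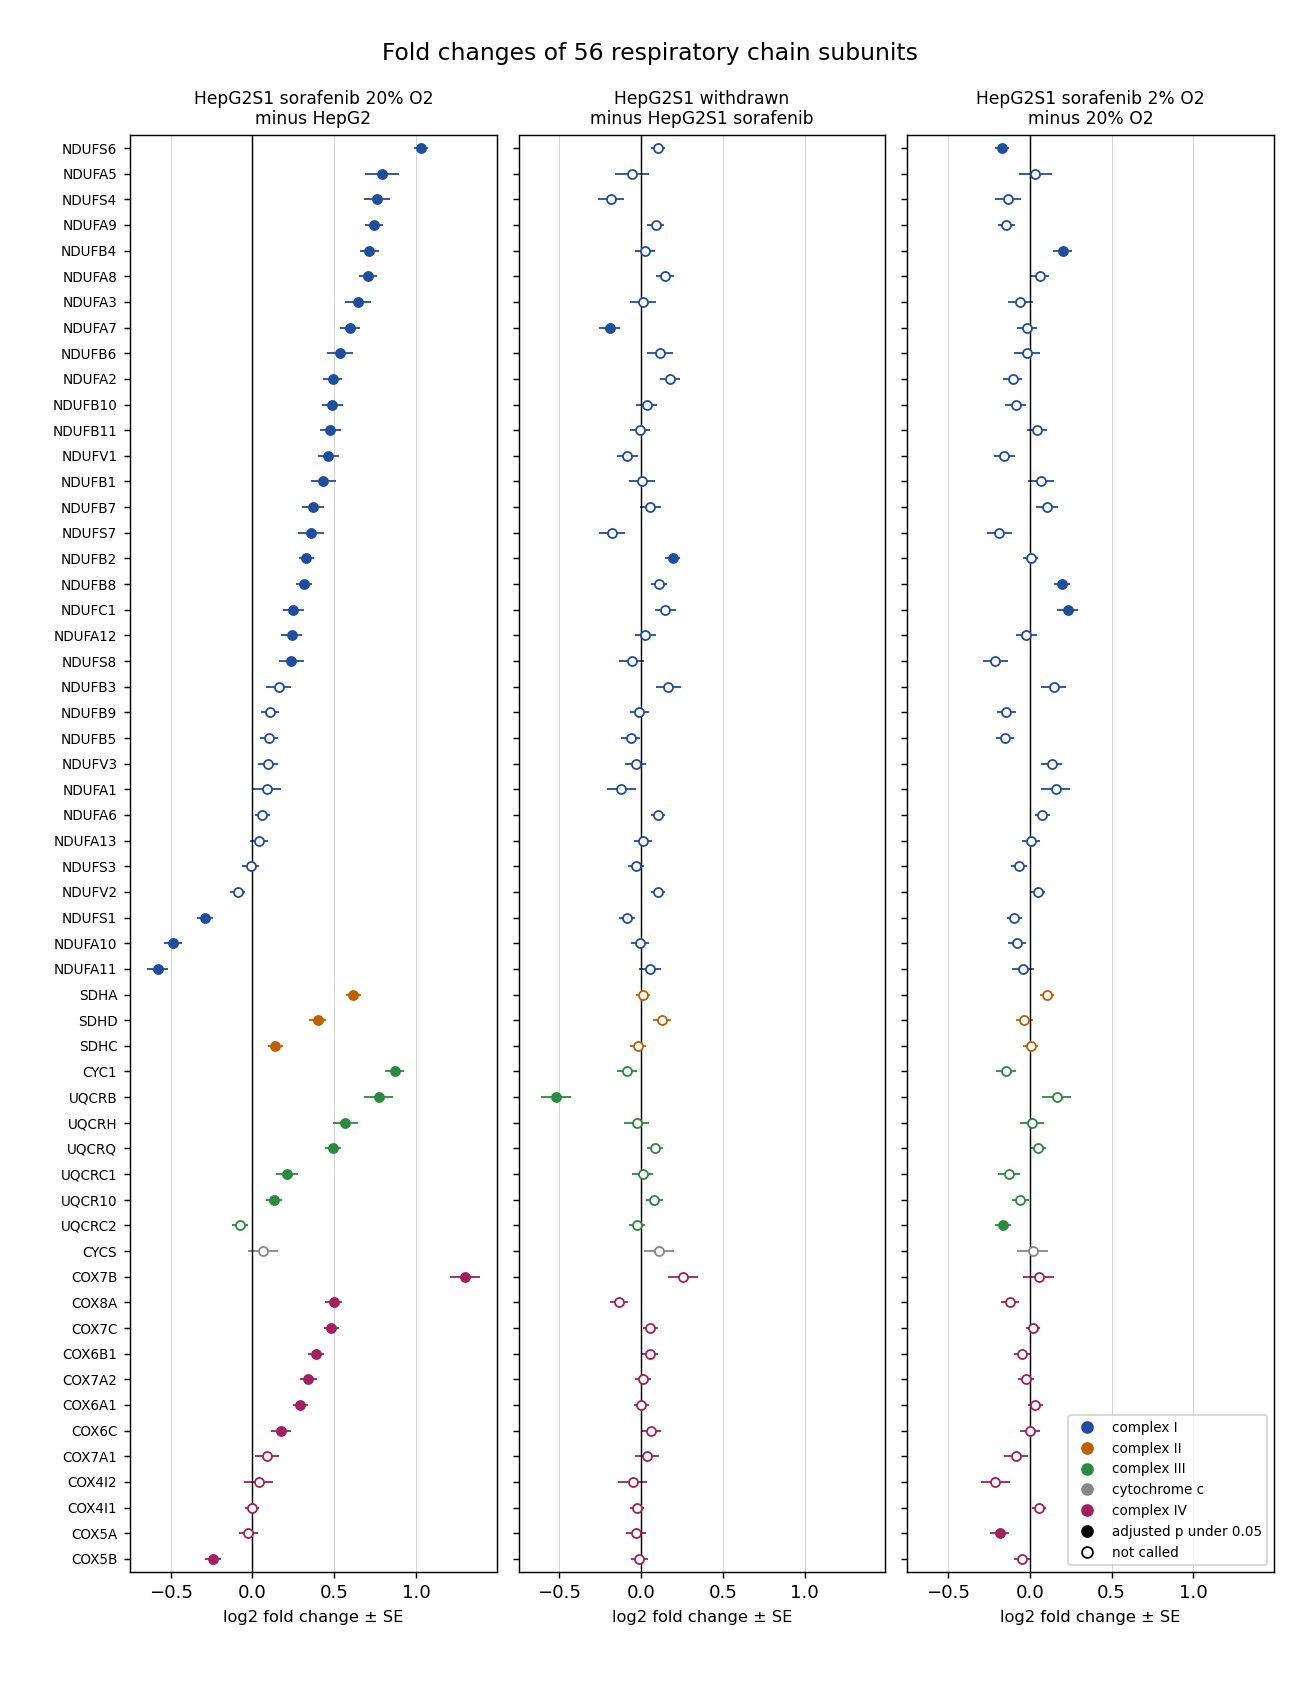
Points are log2 fold changes of the 56 members with their SE from limma, in 3 comparisons on 1 scale, coloured by complex and filled where the adjusted p is under 0.05. The left panel (HepG2S1 with sorafenib minus HepG2) has 41 filled points, the middle panel (withdrawn minus with sorafenib) 3 and the right panel (2% O2 minus 20% O2) 6.

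Promoter sequences were set beside these values because the members moved mostly in 1 direction and several factors are known to serve respiratory genes. NRF1 and GABPA (also called NRF2, an ETS factor) are regulators of nuclear respiratory genes, and YY1 binds many promoters just after the start. RefSeq promoters of GRCh38.p14, 250 bases before to 50 after each gene start, were found for 48 of the 56 members, with 56 starts. The NRF1 core CGCATGCG, which reads the same on both strands, was in 12.5% of the 56 member promoters, against 2.49% of 22198 promoters of protein-coding genes and 2.02% of all 35116 promoters. The YY1 core AAGATGGC, on either strand, was in 14.3% of member promoters, against 3.53% and 2.89%. The ETS core CCGGAAG, on either strand, was in 23.2%, against 12.8% and 10.3%, and ACGTG or GCGTG, the core of the hypoxia response element, on either strand in 58.9%, against 54.7% and 48.4%. The median GC content was 59.67% for members and 62.33% for protein-coding genes. These matches describe letters in a window and show no binding. By call in HepG2S1 with sorafenib against HepG2, members with a promoter had 40 starts where called higher, 5 where called lower and 11 where not called. The NRF1 core was in 17.5%, 0% and 0% of these, and the YY1 core in 17.5%, 0% and 9.09%. The ETS core was in 17.5% of starts of members called higher, 40.0% of those called lower and 36.4% of those not called. The hypoxia core was in 52.5%, 60.0% and 81.8%. These shares rest on few starts and were not tested. Of the 48 members with a promoter, 33 were called higher, whatever motif they held. All 7 members whose promoter holds the NRF1 core are shown, since that factor is best known for respiratory genes. Sites of the ETS and hypoxia cores are not shown. Each line gives the coding-strand sequence from 5′ to 3′ with the core in capitals, and the region in GRCh38.p14.
NDUFS6, chr5:1801352-1801379, plus strand: agaagccgtgCGCATGCGttagcgctaa
NDUFA5, chr7:123557958-123557985, minus strand: atgcccatcgCGCATGCGtcaatttttc
NDUFB4, chr3:120596168-120596195, plus strand: gagcacttcgCGCATGCGcatatcaccg
NDUFA8, chr9:122159765-122159792, minus strand: ttgccggatgCGCATGCGcaggcgccgt
SDHD, chr11:112086754-112086781, plus strand: gctgtgtttgCGCATGCGcgacgggtgt
NDUFS7, chr19:1383823-1383850, plus strand: ttccggtttcCGCATGCGctccgagccg
COX6A1, chr12:120437884-120437911, plus strand: ggagggcacaCGCATGCGcacgaaggaa
Counted from the gene start, the first base of the core lay at -3 in NDUFA8 and at -219 in COX6A1, with the other members between them. The log2 fold changes of these 7 members were 1.03 for NDUFS6, 0.79 for NDUFA5, 0.71 for NDUFB4, 0.70 for NDUFA8, 0.40 for SDHD, 0.36 for NDUFS7 and 0.29 for COX6A1.

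The YY1 core was in promoters of 8 members, of which 7 were called higher and NDUFA6 was not called (0.06 ± 0.04, adjusted p = 0.29). Of all 48 members with a promoter, 33 were called higher, and whether the 2 shares differ was not tested. In all 8 it lay 11 to 26 bases after the start. 4 of them are shown, the 2 with the largest rise, the member that holds both cores and the member that was not called, with the core in capitals.
NDUFS4, chr5:53560650-53560677, plus strand: tgcctgcagcAAGATGGCggcggtgtca
NDUFA9, chr12:4649114-4649141, plus strand: attgtgggaaAAGATGGCggctgccgca
NDUFS7, chr19:1383914-1383941, plus strand: ggccgaggccAAGATGGCggtgctgtca
NDUFA6, chr22:42090730-42090757, minus strand: atgctttggcAAGATGGCggggagcggc
Of the factors themselves, NRF1 averaged 8.09 in HepG2S1 with sorafenib and 7.91 in HepG2 (0.18 ± 0.06, adjusted p = 0.0158). YY1 averaged 10.62 and 10.73 and was not called (-0.11 ± 0.05, adjusted p = 0.0817), and GABPA was at 1.15 ± 0.09 (adjusted p = 2.79e-08). Of 15 regulators of mitochondrial biogenesis 6 were higher (40.0%) and 5 lower (33.3%), near the shares of genes brighter than the 33rd percentile (40.8% and 32.3%). The largest fall was TFB1M, a mitochondrial rRNA methyltransferase (-1.79 ± 0.07, adjusted p = 5.81e-12).

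Few members were called after withdrawal of sorafenib. HepG2S1 cells withdrawn from the drug were set against HepG2S1 cells with it, both at 20% O2, and 1 member was called higher, 2 lower and 53 were not called. All genes had 10.1% higher and 7.9% lower in this comparison. The median of the members was 0.01. By the point estimate, 55 of the 56 members lay within ±0.5, as did 17943 of all 18377 genes. The 95% interval of the difference lay within ±0.5 for the same number of members, 55 of the 56. UQCRB was the exception. It had 7.40, 7.13 and 7.19 in withdrawn cells, against 7.80, 7.77, 7.81 and 7.66 with sorafenib. The log2 fold change was -0.52 ± 0.09 (adjusted p = 0.000966), without overlap of the groups. The withdrawn arrays lay just above the HepG2 values of 7.05, 6.79 and 7.12, and UQCRB was called higher in withdrawn cells than in HepG2 (0.25 ± 0.10, adjusted p = 0.0366). That call held in 16 of 21 alternatives. It was lost without replicate 1 of the withdrawn arrays (0.17, adjusted p = 0.181) and without replicate 2 of HepG2 (0.15, adjusted p = 0.195). These comparisons share arrays, so that their values for UQCRB are not independent.

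NDUFB2, an accessory subunit of the complex I membrane arm, had 9.16, 9.18 and 9.17 in withdrawn cells, against 8.96, 8.96, 8.96 and 9.01 with sorafenib. It was the 1 member called higher (0.19 ± 0.05, adjusted p = 0.0081). NDUFA7, an accessory subunit of the peripheral arm, had 10.92, 10.81 and 10.88 in withdrawn cells, against 10.97, 11.21, 11.00 and 11.08 with sorafenib. Its fall of -0.19 ± 0.06 (adjusted p = 0.0463) was close to the threshold, and the call was lost in 10 of the 13 fits that each left out 1 array. Those were the fits without any 1 withdrawn array (adjusted p = 0.0669, 0.193 and 0.101), without replicate 2, 3 or 4 with sorafenib at 20% O2 (adjusted p = 0.118, 0.0501 and 0.0972), without any 1 array at 2% O2 (adjusted p = 0.0608, 0.0532 and 0.0508) and without replicate 2 of HepG2 (adjusted p = 0.0523). COX7B was at 0.26 ± 0.09, without overlap of the groups, but missed the threshold (adjusted p = 0.075). SDHA (0.01 ± 0.05), CYCS (0.11 ± 0.09), COX4I1 (-0.03 ± 0.04), COX4I2 (-0.05 ± 0.09), COX7A1 (0.03 ± 0.07) and COX7A2 (0.01 ± 0.05) were not called.

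Other mitochondrial genes were called in this comparison. Over all genes 10.1% were higher and 7.9% lower, and over the 12312 genes brighter than the 33rd percentile 16.5% and 12.8%. ATP synthase (11.8% higher), the cycle enzymes (8.33% higher) and assembly factors of complexes II to IV (17.4% and 8.7%) did not go far beyond these shares. Whether any list differs from them was not tested. Of 22 mitochondrial ribosome subunits 6 were higher after withdrawal and none lower, with MRPS12 at 0.45 ± 0.07 and MRPL15 at 0.43 ± 0.06 (adjusted p = 0.000508 and 0.000226). TFAM, which packages and transcribes mitochondrial DNA, rose by 0.55 ± 0.08, and TWNK, the mitochondrial DNA helicase, by 0.48 ± 0.07 (adjusted p = 0.000214 and 0.000251). Complex I assembly factors had 4 of 15 higher, with NDUFAF4 at 0.42 ± 0.06 (adjusted p = 0.000279). Low-oxygen regulators of respiration had 6 of 11 higher and 2 lower, with EGLN3 at 0.60 ± 0.15 and ISCU, a scaffold for iron-sulfur clusters, at -0.41 ± 0.05 (adjusted p = 0.0103 and 0.000114). Membrane and matrix markers had 5 of 17 higher and 1 lower, led by TOMM22, an import receptor (0.35 ± 0.07, adjusted p = 0.00307). Assembly factors of complexes II to IV had 4 of 23 higher and 2 lower, led by COA7 at 0.49 ± 0.07 (adjusted p = 0.000369). ATP synthase had 2 of 17 higher, the cycle enzymes 1 of 12 and the 7 further nuclear subunits none. 2 of the 8 fibroblast and stellate markers were higher after withdrawal as well, DCN by 0.82 ± 0.07 and LUM by 0.73 ± 0.14. CD68, a macrophage marker, was the 1 of 8 endothelial and blood markers called, at 11.53 in withdrawn cells and 12.08 with sorafenib (-0.55 ± 0.06, adjusted p = 4.44e-05). APOB, a lipoprotein component, was the 1 of 8 hepatocyte markers called (0.23 ± 0.06, adjusted p = 0.0174), and the part of these markers in the values above was not tested.

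Few members were called at low oxygen. HepG2S1 cells with sorafenib at 2% O2 were set against the same cells with sorafenib at 20% O2, and 3 members were higher, 3 lower and 50 not called. All genes had 8.99% higher and 6.17% lower. The median of the members was -0.02, and the 95% interval of the difference lay within ±0.5 for all 56. By the point estimate, 17960 of all 18377 genes lay within ±0.5 as well. Of 8 fibroblast and stellate markers DCN was higher, at 11.12 at 2% O2 and 10.59 at 20% O2 (0.52 ± 0.07, adjusted p = 0.00016), and PDGFRA, a growth factor receptor, lower (-0.24 ± 0.08, adjusted p = 0.0483). Of 8 hepatocyte markers TF, transferrin, was lower (-0.19 ± 0.05, adjusted p = 0.0238), and no endothelial or blood marker was called. The part of these markers in the values below was not tested. NDUFC1, an accessory subunit of the membrane arm, had 9.70, 9.67 and 9.60 at 2% O2, against 9.47, 9.47, 9.33 and 9.42 at 20% O2 (0.23 ± 0.06, adjusted p = 0.0268). NDUFB4 rose by 0.20 ± 0.06 and NDUFB8 by 0.20 ± 0.05 (adjusted p = 0.0318 and 0.013), both subunits of the membrane arm.

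The falls at 2% O2 were in 3 complexes. COX5A, a subunit of complex IV on the matrix side, had 11.31, 11.29 and 11.36 at 2% O2, against 11.50, 11.64, 11.40 and 11.47 at 20% O2 (-0.18 ± 0.06, adjusted p = 0.0458). NDUFS6 had 9.85, 9.88 and 9.82 at 2% O2, against 10.04, 10.01, 10.02 and 10.02 at 20% O2 (-0.17 ± 0.04, adjusted p = 0.0178). UQCRC2, a core protein of complex III, had 12.32, 12.28 and 12.23 at 2% O2, against 12.49, 12.37, 12.48 and 12.44 at 20% O2 (-0.17 ± 0.05, adjusted p = 0.0344). Each of these 6 calls was lost in at least 1 fit that left out an array. NDUFB8 was lost without replicate 2 at 2% O2 (adjusted p = 0.0538), and NDUFS6 without replicate 1 or 3 at 2% O2 (adjusted p = 0.0573 and 0.0539). NDUFC1 and NDUFB4 were lost without replicate 1 or 2 at 2% O2 or replicate 3 or 4 at 20% O2, with adjusted p up to 0.102 for NDUFC1 and 0.165 for NDUFB4. UQCRC2 was lost without any 1 array at 2% O2, without replicate 1, 3 or 4 with sorafenib at 20% O2 and without replicate 2 of the withdrawn arrays (adjusted p up to 0.0971). COX5A was lost without any 1 array at 2% O2, any 1 withdrawn array or replicate 1, 2 or 4 with sorafenib at 20% O2 (adjusted p up to 0.156). With each array shifted to a common 75th percentile, 1 member was higher and 11 were lower. That scaling turned the split of all genes to 6.92% higher and 12.8% lower.

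The second row of NDUFS4 was called at 2% O2 (0.32, adjusted p = 0.00327), where the row used was not (-0.13, adjusted p = 0.284), so that the 2 rows disagree. The second row averaged 5.26 over all arrays, below the lower quartile of 5.76, and the row used averaged 10.27.

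The low-oxygen isoform COX4I2 was not called at 2% O2. It had 6.60, 6.73 and 6.77 at 2% O2, against 6.69, 7.03, 6.89 and 7.03 at 20% O2 (-0.21 ± 0.09, adjusted p = 0.121), with overlapping groups. Without replicate 1 with sorafenib at 20% O2, COX4I2 was called lower at -0.29 (adjusted p = 0.0274). COX4I1 was at 0.06 ± 0.04 (adjusted p = 0.371), SDHA at 0.10 ± 0.05 (adjusted p = 0.129), CYCS at 0.02 ± 0.09, COX7A1 at -0.08 ± 0.07 and COX7A2 at -0.02 ± 0.05, none of them called. The cells did respond to 2% O2 in other genes. Over all genes 8.99% were higher and 6.17% lower, and over the 12312 genes brighter than the 33rd percentile 14.4% and 9.23%. Of 11 low-oxygen regulators of respiration 8 were higher and 1 lower, with a median of 0.90. EGLN3, a prolyl hydroxylase that senses oxygen, averaged 9.27 at 2% O2 and 7.37 at 20% O2 (1.90 ± 0.15, adjusted p = 6.84e-07). BNIP3, which marks mitochondria for removal, averaged 12.91 at 2% O2 and 11.66 at 20% O2 (1.25 ± 0.05, adjusted p = 1.23e-09). PPARGC1A, a coactivator of mitochondrial biogenesis, fell by 0.52 (SE 0.08, adjusted p = 0.000535). Of 12 tricarboxylic acid cycle enzymes 1 was higher and 4 were lower, with IDH2, a mitochondrial isocitrate dehydrogenase, at 0.57 ± 0.07 and IDH3A, another, at -0.27 ± 0.05 (adjusted p = 6.79e-05 and 0.00174). Among the other lists, 0 of 17 ATP synthase subunits were higher and 1 lower, 0 of 15 complex I assembly factors higher and 2 lower, led by NDUFAF4 at -0.38 ± 0.06 (adjusted p = 0.000771). Assembly factors of complexes II to IV had 2 of 23 higher and 3 lower, and the mitochondrial ribosome 1 of 22 higher and 2 lower. Membrane and matrix markers had 1 of 17 higher and 3 lower, led by VDAC3, an outer membrane channel (0.38 ± 0.05, adjusted p = 0.000103). Biogenesis regulators had 0 of 15 higher and 3 lower, and the 7 further nuclear subunits 0 higher and 3 lower. The largest of those falls were in COX6B2 and COX8C, which averaged 5.37 and 5.73 over all arrays, below the lower quartile of 5.76. The difference between the lists was not tested.

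**Figure D3:**
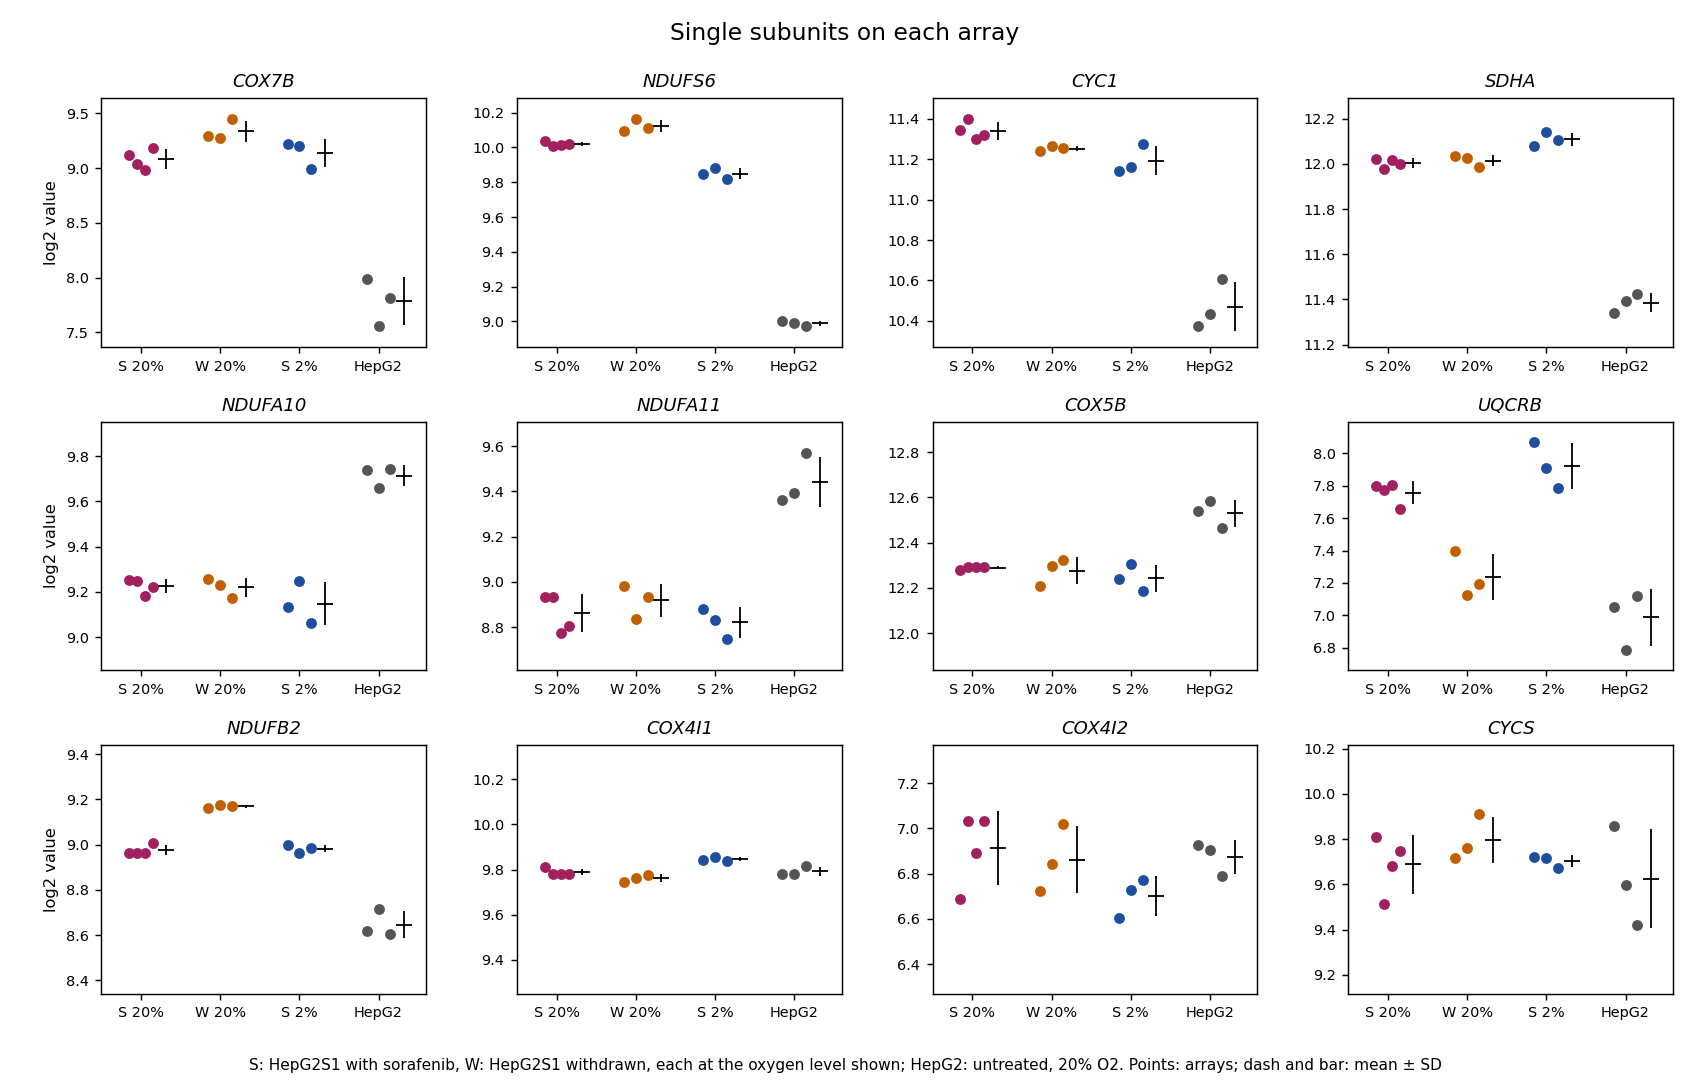
Log2 values of 12 members on the 13 arrays, with 1 point per array and the mean ± SD beside each group. COX7B, NDUFS6, CYC1 and SDHA lie higher in all HepG2S1 groups than in HepG2, NDUFA10, NDUFA11 and COX5B lower. UQCRB is lower after withdrawal than with sorafenib, and COX4I1, COX4I2 and CYCS have overlapping groups for HepG2S1 with sorafenib and HepG2.

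Withdrawn HepG2S1 cells were then set against HepG2, both without drug at 20% O2. 36 members were higher, 4 lower and 16 not called, with a median of 0.34, where all genes had 29.6% higher and 27.0% lower. The HepG2 arrays are those of the first comparison, so that these counts are not independent of it. NDUFS6 (1.13 ± 0.05), NDUFA8 (0.85 ± 0.06) and NDUFA9 (0.83 ± 0.06) had the largest rises of complex I. SDHA rose by 0.63 ± 0.05 and SDHD by 0.53 ± 0.06, and SDHC was at 0.12 ± 0.05 and was not called (adjusted p = 0.0539). CYC1 (0.78 ± 0.06), UQCRQ (0.58 ± 0.05) and UQCRH (0.54 ± 0.08) led complex III. COX7B was at 1.55 ± 0.10, or 2.93-fold, with 9.30, 9.27 and 9.45 in withdrawn cells, against 7.99, 7.56 and 7.81 in HepG2. COX7C rose by 0.54 ± 0.05 and COX6B1, a subunit on the intermembrane side, by 0.44 ± 0.05. NDUFA11 (-0.52 ± 0.07), NDUFA10 (-0.49 ± 0.06), NDUFS1 (-0.38 ± 0.05) and COX5B (-0.25 ± 0.05) were the 4 falls, each with an adjusted p of 0.000829 or less. COX7A2 rose by 0.35 ± 0.05 (adjusted p = 3.86e-05). COX4I1 (-0.03 ± 0.05), COX4I2 (-0.01 ± 0.09), COX7A1 (0.12 ± 0.08) and CYCS (0.17 ± 0.10) were not called. CYCS was called at 0.29 without replicate 1 of HepG2 (adjusted p = 0.0131). Among the other lists in withdrawn cells, ATP synthase had 14 of 17 higher and 1 lower, complex I assembly factors 10 of 15 and 4, and the cycle enzymes 7 of 12 and 2. The mitochondrial ribosome had 11 of 22 higher and 3 lower, and assembly factors of complexes II to IV 7 of 23 and 8.

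Genes that work beside the respiratory chain did not all follow the members in HepG2S1 with sorafenib against HepG2. Over all genes 30.1% were higher and 27.2% lower, and over the 12312 genes brighter than the 33rd percentile 40.8% and 32.3%. The mitochondrial ribosome (40.9% and 36.4%) and assembly factors of complexes II to IV (39.1% and 39.1%) were near the brighter genes. Membrane and matrix markers (23.5% and 17.6%) were below both. ATP synthase had 14 of 17 subunits higher and 1 lower, with a median of 0.32, led by ATP5MC2, a c-ring subunit (0.65 ± 0.05, adjusted p = 1.39e-08), and ATP5PO, the stalk subunit (0.61 ± 0.05, adjusted p = 3.14e-08). Tricarboxylic acid cycle enzymes had 7 of 12 higher and 2 lower, with IDH3G at 1.16 ± 0.05 and IDH2 at -1.26 ± 0.07 (adjusted p = 1.12e-11 and 2.46e-10). Complex I assembly factors had 9 of 15 higher and 4 lower, with ACAD9 at 1.36 ± 0.05 and NUBPL, which delivers iron-sulfur clusters, at -1.09 ± 0.09 (adjusted p = 3.84e-12 and 3.65e-08). Assembly factors of complexes II to IV were split, with 9 of 23 higher and 9 lower, COX15, of haem a synthesis, at 0.88 ± 0.05 and COA5 at -0.78 ± 0.08. Mitochondrial ribosome subunits had 9 of 22 higher and 8 lower, with MRPS15 at 0.69 ± 0.05 and MRPL44 at -0.94 ± 0.06. Membrane and matrix markers had 4 of 17 higher and 3 lower, with CHCHD3, a cristae protein, at 0.62 ± 0.05 and HSPE1, a matrix chaperonin, at -0.54 ± 0.06. Low-oxygen regulators had 5 of 11 higher and 1 lower, the fall being EGLN3 at -1.02 ± 0.15. Among 7 further nuclear subunits outside the list 1 was higher and 1 lower, the fall being NDUFAB1, the mitochondrial acyl carrier protein, at -0.52 ± 0.06. The rise was COX8C, at 5.89 with sorafenib and 5.57 in HepG2. COX6B2, COX7B2 and COX8C of this list averaged 5.37, 4.38 and 5.73 over all arrays, below the lower quartile of 5.76. Whether a list differs from the members was not tested.

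**Figure D4:**
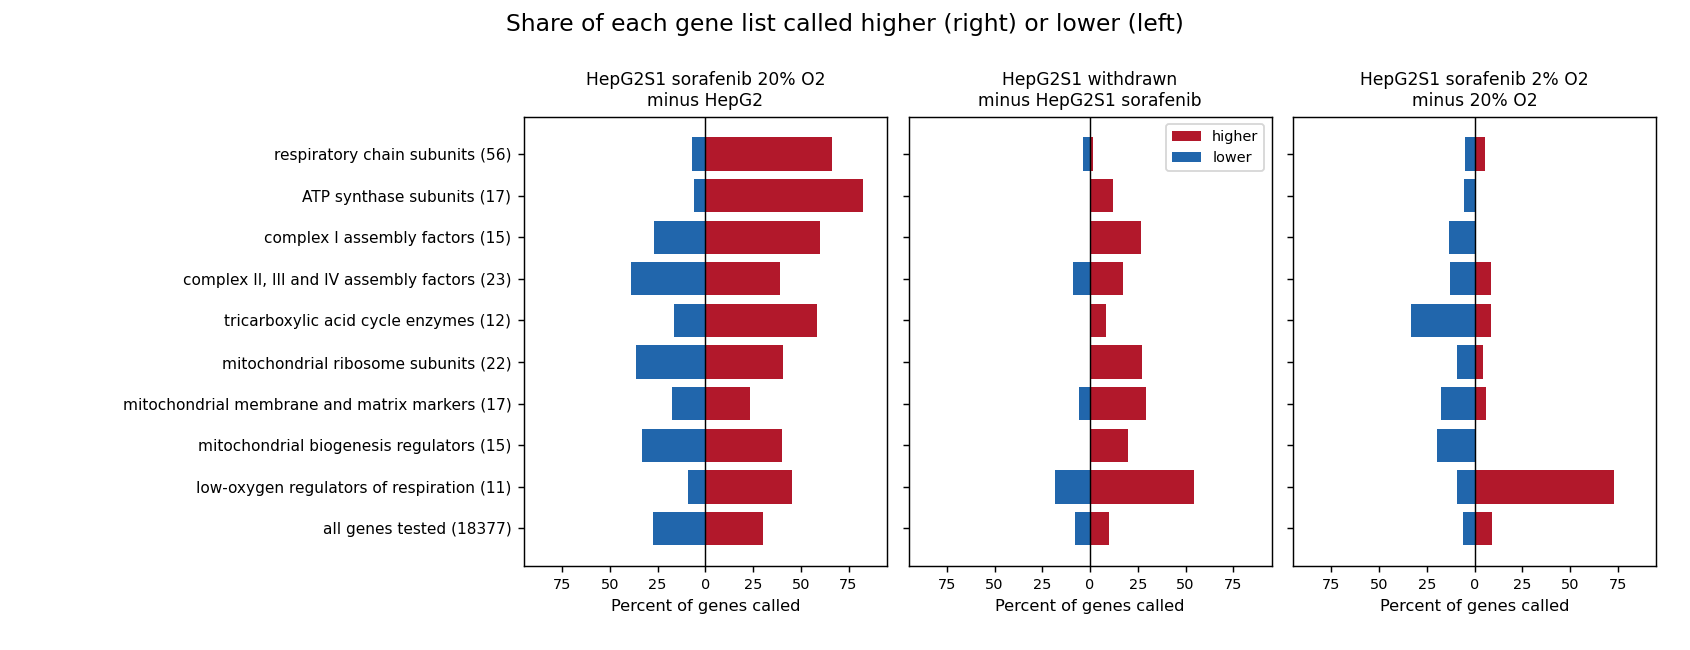
Bars give the percent of each list called higher (right, red) or lower (left, blue) at an adjusted p under 0.05, with the number of genes measured in brackets, in 3 comparisons. In HepG2S1 with sorafenib against HepG2, 66.1% of the respiratory chain members and 82.4% of ATP synthase subunits were higher, against 30.1% of all genes.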

How the data were processed

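RNA from 13 flasks was measured on 13 Affymetrix HuGene arrays, in groups of 4, 3, 3 and 3 taken from the labels. The values deposited by the authors are on a log2 scale, and the submitters' processing notes name RMA. RMA corrects background, normalizes quantiles and summarises probes, which compresses low signals, and its version is not given in the sources used here. Of 28926 rows, 19310 had 1 symbol, 1752 several and 7864 none. For 19279 rows the Entrez ID was found in RefSeq (GRCh38.p14), and its symbol there was used, whether or not it differed. For the 685 genes with several rows, 6 members among them, the brightest row by its mean was used. Rows of NDUFB4 held equal values, and SDHA and UQCRH also appear on rows shared with pseudogenes. Row identifiers of the members run in the order of their chromosomes, except for the rows used for SDHC, SDHD and NDUFV2. RMA gives exact ties between arrays for some genes.

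All 4 groups entered 1 fit in limma 3.58.1 (R 4.3.3, lmFit and eBayes), with Benjamini-Hochberg adjustment over 18377 genes and a threshold of 0.05. Fold changes are differences of log2 means, the group named first less the other, and SEs come from this fit. Flasks were separate, and p-values measure the spread between flasks, which may be technical. No set was tested. The members and gene lists were chosen with earlier results of these data known. Named were up to 3 rises and 3 falls per complex, 6 further members (COX4I1, COX4I2, COX7A1, COX7A2, SDHA and CYCS) and up to 2 genes per list, and other names were chosen after their values were seen. On simulated data for 18377 genes, the fit recovered 78% of genes changed by 0.5 in the first comparison and 42% of those changed by 0.3, with 2 false calls of 114. For withdrawal it recovered 96% and 52% with 6 false calls of 136, for low oxygen 86% and 52% with 10 of 140, and for withdrawn cells against HepG2 74% and 30% with 10 of 116. Only 50 genes were changed at each size, where the first comparison called 5528 genes higher and 4997 lower. The adjusted p depends on how many genes change, so these shares do not give the recovery in the data. Alternatives were trend and robust moderation, fewer groups, a filter, 2 further normalizations, array weights, other row rules, a stricter adjusted p (0.01) and fits without each array in turn. Promoter sequences came from RefSeq. A planned alignment of isoform proteins was not run. Figures used matplotlib 3.10.9 under Python 3.11.15.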

Additional observations from a re-analysis of the deposited data

Results flagged for a closer look

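In HepG2S1 with sorafenib at 20% O2, the 1 group of more than 3 arrays, 6 of the 56 members had 1 array far from the other 3, where chance sets apart about 1 in 20. NDUFB1 had 8.66 on replicate 2, against 8.79 to 8.80 on the others. NDUFB2 had 9.01 on replicate 4, against 8.96 on the others. NDUFB10 had 10.53 on replicate 1, against 10.67 to 10.69. NDUFS3 had 11.16 on replicate 2, against 11.07 to 11.09. NDUFV2 had 11.21 on replicate 3, against 11.27 to 11.28. COX4I1 had 9.81 on replicate 1, against 9.78 on the others. The arrays differed between members, and NDUFB2 and COX4I1 were set apart because their other 3 arrays held equal values.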

How the results depend on the processing

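No paired analysis was possible because the labels give no replicate numbers shared between groups. Against HepG2, the counts moved little: over all alternatives 32 to 38 members were higher with sorafenib (4 or 5 lower) and 33 to 39 after withdrawal (4 or 5 lower). The stricter adjusted p of 0.01 set aside, 36 of 41 calls with sorafenib were kept in every alternative. After withdrawal 37 of 40 were kept, with no called sign turned in either comparison. NDUFS8, SDHC, UQCRC1, UQCR10 and COX6C lost the call with sorafenib in some of these, and NDUFA6, UQCRC1 and UQCRB lost it after withdrawal. Counts within HepG2S1 depended on the choices. After withdrawal, members higher numbered 7 with trend and robust moderation, 3 with the 2 groups alone, 4 with HepG2S1 arrays alone, 4 with the filter and 10 with array weights, and members lower 1 with the 2 groups alone and 1 at an adjusted p of 0.01. Leaving out 1 array gave 1 to 4 higher and 1 to 2 lower. At 2% O2, members higher numbered 1 with 75th percentile scaling, 1 with quantile normalization repeated and 0 at an adjusted p of 0.01. Members lower numbered 6 with trend and robust moderation, 1 with the 2 groups alone, 11 with 75th percentile scaling, 7 with quantile normalization repeated, 8 with array weights and 0 at an adjusted p of 0.01. Leaving out 1 array gave 0 to 3 higher and 0 to 4 lower at 2% O2. The cause was not tested.

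Some members that were not called changed sign around 0. With 75th percentile scaling and with quantile normalization repeated, the log2 fold change after withdrawal was -0.0102 and -0.0158 for COX7A2 and -0.0100 and -0.0127 for SDHA, and at 2% O2 it was -0.0339 and -0.0314 for CYCS. With quantile normalization repeated COX4I2 was at 0.0266 in withdrawn cells against HepG2. Leaving out 1 array gave, with sorafenib against HepG2, -0.0098 to 0.0086 for COX4I1, -0.0040 to 0.1127 for COX4I2 and -0.0383 to 0.1784 for CYCS. After withdrawal it gave -0.1292 to 0.0190 for COX4I2, -0.0050 to 0.0792 for COX7A1 and -0.0126 to 0.0372 for COX7A2. At 2% O2 it gave -0.0549 to 0.0169 for COX7A2 and -0.0422 to 0.0572 for CYCS, and in withdrawn cells against HepG2 -0.0910 to 0.0571 for COX4I2. The number of arrays limits the precision of every value.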
